A study of Mus musculus with 16 samples.

Results

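The genes described here are 35 interferon-response and antigen-presentation genes, listed by name with earlier results of these data known, and looked up by gene symbol in the 2 gene tables deposited for a mouse hypothalamus RNA-seq study. The table of CTRL, OLZ and OLZ+MINO mice held 32 of them among 15983 genes, and the table of CTRL and MINO mice held 33 among 16005 genes. Usp18, a protease that removes Isg15 from proteins, and Psmb9, an immunoproteasome subunit, had no row in either table, and Bst2, which tethers budding virus to the cell surface, had a row only in the second. By role, 2 of the 35 genes were sensors of viral RNA, 5 were transcription factors, 18 were antiviral effectors and regulators, and 10 took part in antigen processing or in the MHC class I molecule itself.

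The study asked whether minocycline, a tetracycline antibiotic, acts on the hypothalamus of mice that overeat under olanzapine, an antipsychotic. RNA-seq libraries were made from the dissected hypothalamus of 16 female C57BL/6 mice, with 4 mice per group. OLZ+MINO mice ate high fat diet containing olanzapine and drank minocycline, OLZ mice ate the same olanzapine diet, MINO mice ate high fat diet without olanzapine and drank minocycline, and CTRL mice ate the high fat diet alone. All groups therefore shared the high fat diet (45 kcal% fat). Olanzapine was given at 54 mg per kg of diet and minocycline at 0.6 mg/mL of drinking water, from 10 weeks of age and for 12 weeks. Libraries are named below by group and mouse number.

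Interferons are secreted proteins, and those of type I are released by cells on sensing foreign nucleic acid. Type I interferons signal through the JAK-STAT pathway to a complex that holds Stat2 and Irf9 and binds interferon-stimulated response elements, and interferon gamma acts on promoters through gamma-activated sites. MHC class I molecules carry peptides from the inside of a cell to its surface: the proteasome cuts the peptides, the Tap1 and Tap2 transporter brings them into the endoplasmic reticulum, Erap1 trims them, and tapasin (Tapbp) helps to load them onto a class I heavy chain paired with B2m. In the healthy brain, microglia and endothelial cells are known for most of this expression.

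Promoter stretches with either element are shown first, because both elements are short enough to be seen. Of the 35 genes, 29 had a RefSeq promoter entry (GRCm38.p6), and the 250 bases before the start were searched on both strands. The response element was searched as GAAANNGAAA (TTTCNNTTTC on the other strand) and was in 9 of the 29 genes (31%), against 3.46% of all 27025 gene symbols with an entry. The gamma-activated site was searched as TTCNNNGAA, which reads the same on both strands, and was in 6 of the 29 (20.7%), against 8.13% of all symbols. The following stretches run 5′ to 3′ on the strand of the gene, with matches in capitals. They are Ifit1, Irf1 and Psmb8, which had a match and changed in at least 1 of the comparisons that follow, and B2m and Isg15, which had a match and passed the test in none.
Ifit1 (chr19:34640749-34640838, + strand, bases 140 to 51 before the start): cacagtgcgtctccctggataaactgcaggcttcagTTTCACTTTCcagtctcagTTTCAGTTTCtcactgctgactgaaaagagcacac
Irf1 (chr11:53769874-53769963, + strand, bases 140 to 51 before the start): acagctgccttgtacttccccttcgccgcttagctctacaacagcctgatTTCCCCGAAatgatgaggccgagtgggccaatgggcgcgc
Psmb8 (chr17:34198088-34198116, + strand, bases 107 to 79 before the start): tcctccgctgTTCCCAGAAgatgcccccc
B2m (chr2:122147547-122147636, + strand, bases 140 to 51 before the start): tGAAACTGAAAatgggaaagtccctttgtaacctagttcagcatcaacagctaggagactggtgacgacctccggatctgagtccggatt
Isg15 (chr4:156200869-156200958, − strand, bases 140 to 51 before the start): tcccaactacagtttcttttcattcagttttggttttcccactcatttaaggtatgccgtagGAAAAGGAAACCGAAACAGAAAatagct
Ifit1 had 2 response elements, Isg15 had 3 that overlap each other, B2m had 1, and Irf1 and Psmb8 each had 1 gamma-activated site. The Psmb8 stretch lies inside the annotated Psmb8 gene (chr17:34197721-34201454) and overlaps 1 annotated exon. Neither pattern was found in the windows of Erap1, Samd9l, Lgals3bp, Trim25, Tap1, H2-K1 and H2-D1, which also passed a test in these data. A match is a description of the letters and not of binding.

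The deposited values are whole numbers that look like scaled reads, since the CTRL libraries, which both tables hold, had totals 1.005 to 1.006 times as high in the second. They are called scaled counts here, although the scaling method is not stated, and levels are compared between groups and not between genes of different length. Library totals lay between 8435016 and 9279227 scaled counts in the first table and between 8783427 and 9447616 in the second, and the lowest mean of any gene was 9.5. Among the measured genes of interest, the mean over the libraries ran from 13.4 for Isg15 to 302.75 for Tapbp in the first table, and 11 of 32 lay under 50. All 15 hypothalamus markers (neuropeptides and transcription factors of its nuclei) had rows, and their sum lay at 969 to 10117 in OLZ+MINO libraries, 7010 to 9863 in OLZ libraries and 6127 to 9920 in CTRL libraries. OLZ+MINO mouse 48, at 969, and OLZ+MINO mouse 40, at 3981, had the lowest sums.

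Olanzapine came with higher values of a few antigen-processing and antiviral genes, and of these 5 genes 4 also passed the test, in the opposite direction, where minocycline was added. In OLZ against CTRL, 5 of the 32 genes rose (15.6%) and 0 fell at an adjusted p under 0.3, against 1.82% of all genes rising and 1.82% falling. They were Erap1, Samd9l, Lgals3bp, Ifit1 and Psmb8. The threshold of 0.3 follows the study, whose methods describe a local false discovery rate, which is another quantity than the Benjamini-Hochberg adjusted p used here. With minocycline added (OLZ+MINO against OLZ), 10 of the 32 fell (31.25%) and 0 rose, against 6.36% of all genes falling and 5.99% rising. They were Erap1, Samd9l, H2-K1, Tap2, Trim25, Irf1, Lgals3bp, Psmb8, H2-D1 and Tap1. Erap1, Samd9l, Lgals3bp and Psmb8 passed in both comparisons, which share the OLZ libraries, so their opposite directions are not independent of each other. At the stricter threshold of 0.05, 0 of the 32 passed in OLZ against CTRL (0.0125% of all genes) and 1, Erap1, in OLZ+MINO against OLZ (0.338% of all genes). Where a pair of log2 fold changes is given for a gene in what follows, OLZ against CTRL stands before OLZ+MINO against OLZ.

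The direction was shared more widely than the calls. In OLZ against CTRL, 28 of the 32 log2 fold changes were above 0 (87.5%, against 50.7% of all genes), with a median of 0.40 against 0.00 over all genes. Between OLZ+MINO and OLZ, 28 of the 32 were below 0 (87.5%, against 49.2% of all genes), with a median of −0.45. Groups that did not overlap were seen for 4 of the 32 in OLZ against CTRL, all higher (Erap1, Samd9l, Lgals3bp and Trim25), against 3.64% of all genes higher in this way. All OLZ+MINO libraries lay below all OLZ libraries for 6 of the 32 (Erap1, Samd9l, H2-K1, Tap2, Trim25 and Psmb8), against 4.2% of all genes.

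**Figure D1:**
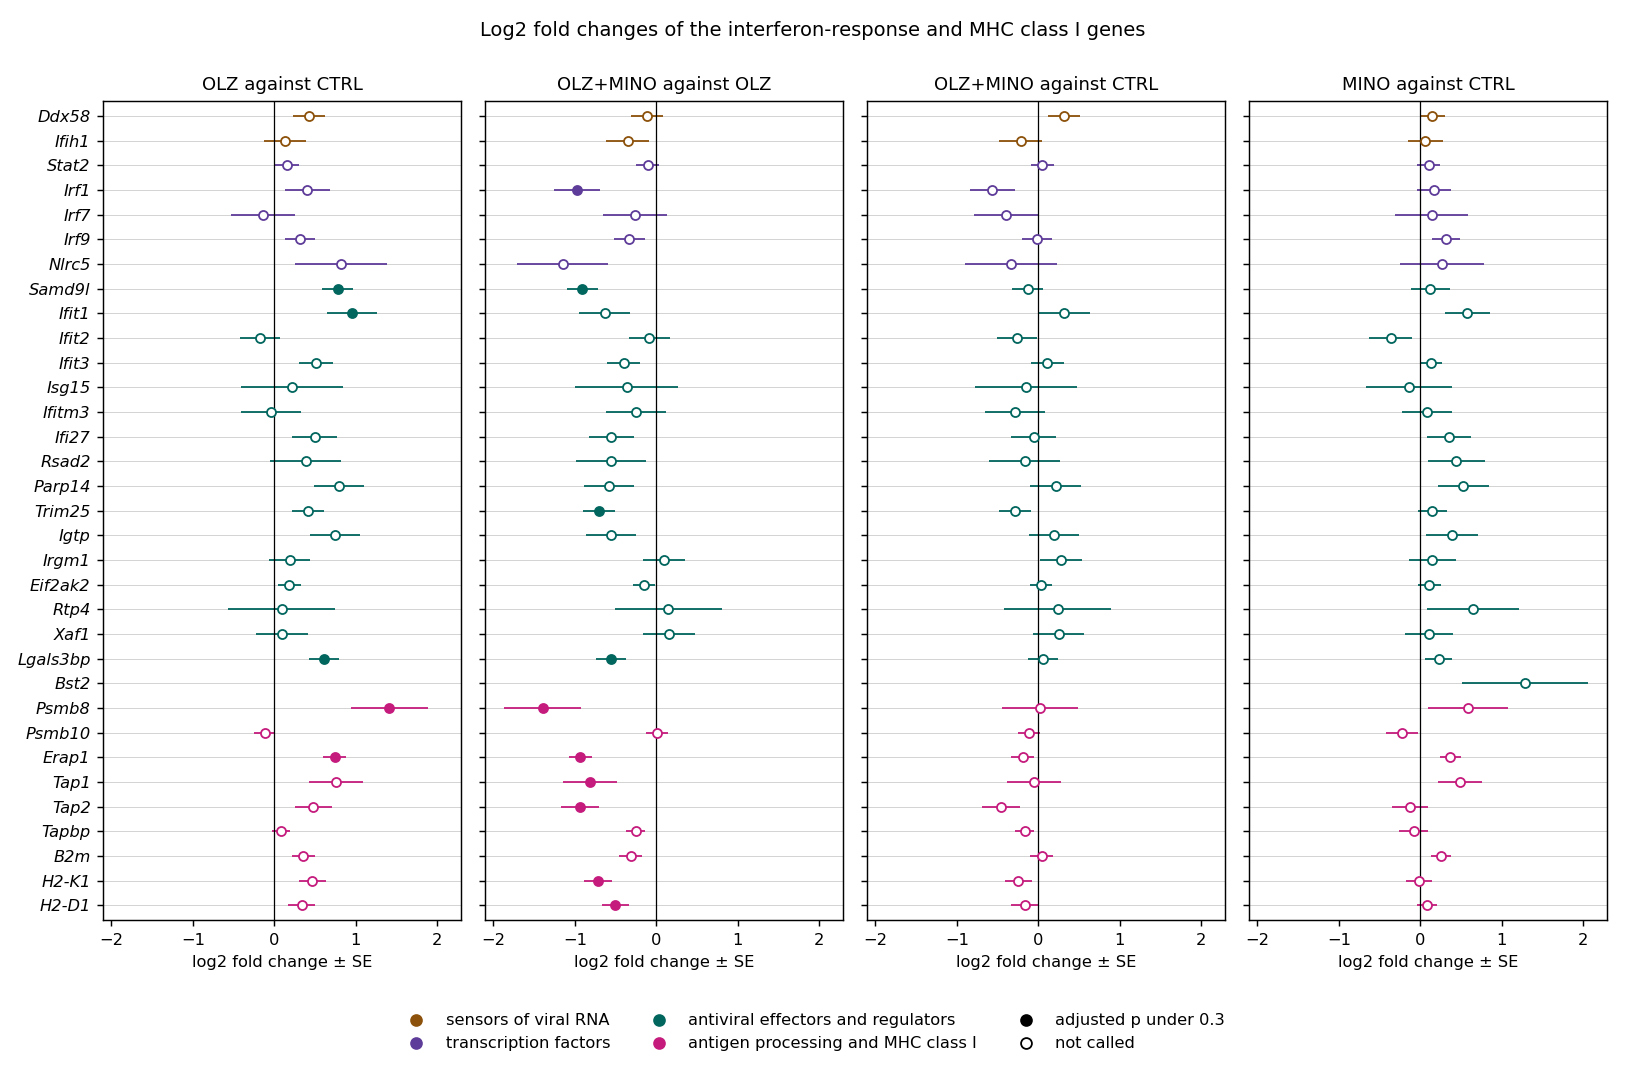
Log2 fold change (x axis, with SE) of each gene (y axis, coloured by role) in the 4 comparisons; filled points have an adjusted p under 0.3. The filled points all lie above 0 in OLZ against CTRL (5 genes) and below 0 in OLZ+MINO against OLZ (10 genes), and there are 0 in the remaining panels.

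One library weighed on these counts. OLZ mouse 13 was the highest of all 12 libraries of its table for 20 of the 32 genes, with a mean log2 difference of 0.82 from the CTRL mean, whereas OLZ mice 14, 17 and 19 had 0.24, 0.19 and 0.37. OLZ+MINO libraries lay between −0.22 and 0.03, and CTRL libraries between −0.20 and 0.30, so that CTRL mouse 4 lay above OLZ mice 14 and 17. Without OLZ mouse 13, 0 of the 32 genes were called in OLZ against CTRL and 2 of all 15983 genes, 24 of the 32 log2 fold changes were above 0, and their median was 0.25. Without it, 3 genes were called in OLZ+MINO against OLZ (Erap1, H2-K1 and Samd9l), 28 were below 0, and the median was −0.30.

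Other libraries also moved the counts. In OLZ against CTRL, 1 gene (Erap1) was called when OLZ mouse 14 or 19 or CTRL mouse 3 or 11 was left out, 3 genes were called without OLZ+MINO mouse 47, 8 without OLZ mouse 17, and 10 without CTRL mouse 4 or OLZ+MINO mouse 48. For OLZ+MINO against OLZ, 5 were called without OLZ+MINO mouse 48, and 1 (Erap1) when OLZ+MINO mice 40 and 48, the libraries with the fewest hypothalamus marker counts, were both left out. In that last fit, 31 of the 32 log2 fold changes were below 0 and their median was −0.48. Some hypothalamus markers were themselves called. In OLZ against CTRL, 3 of the 15 rose (Agrp, Npy and Pomc), beside 1.82% of all genes. In OLZ+MINO against OLZ, 6 fell (Agrp, Npy, Pomc, Ghrh, Avp and Gal), beside 6.36% of all genes. The parts of treatment and of dissection in the marker sums were not tested.

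**Figure D2:**
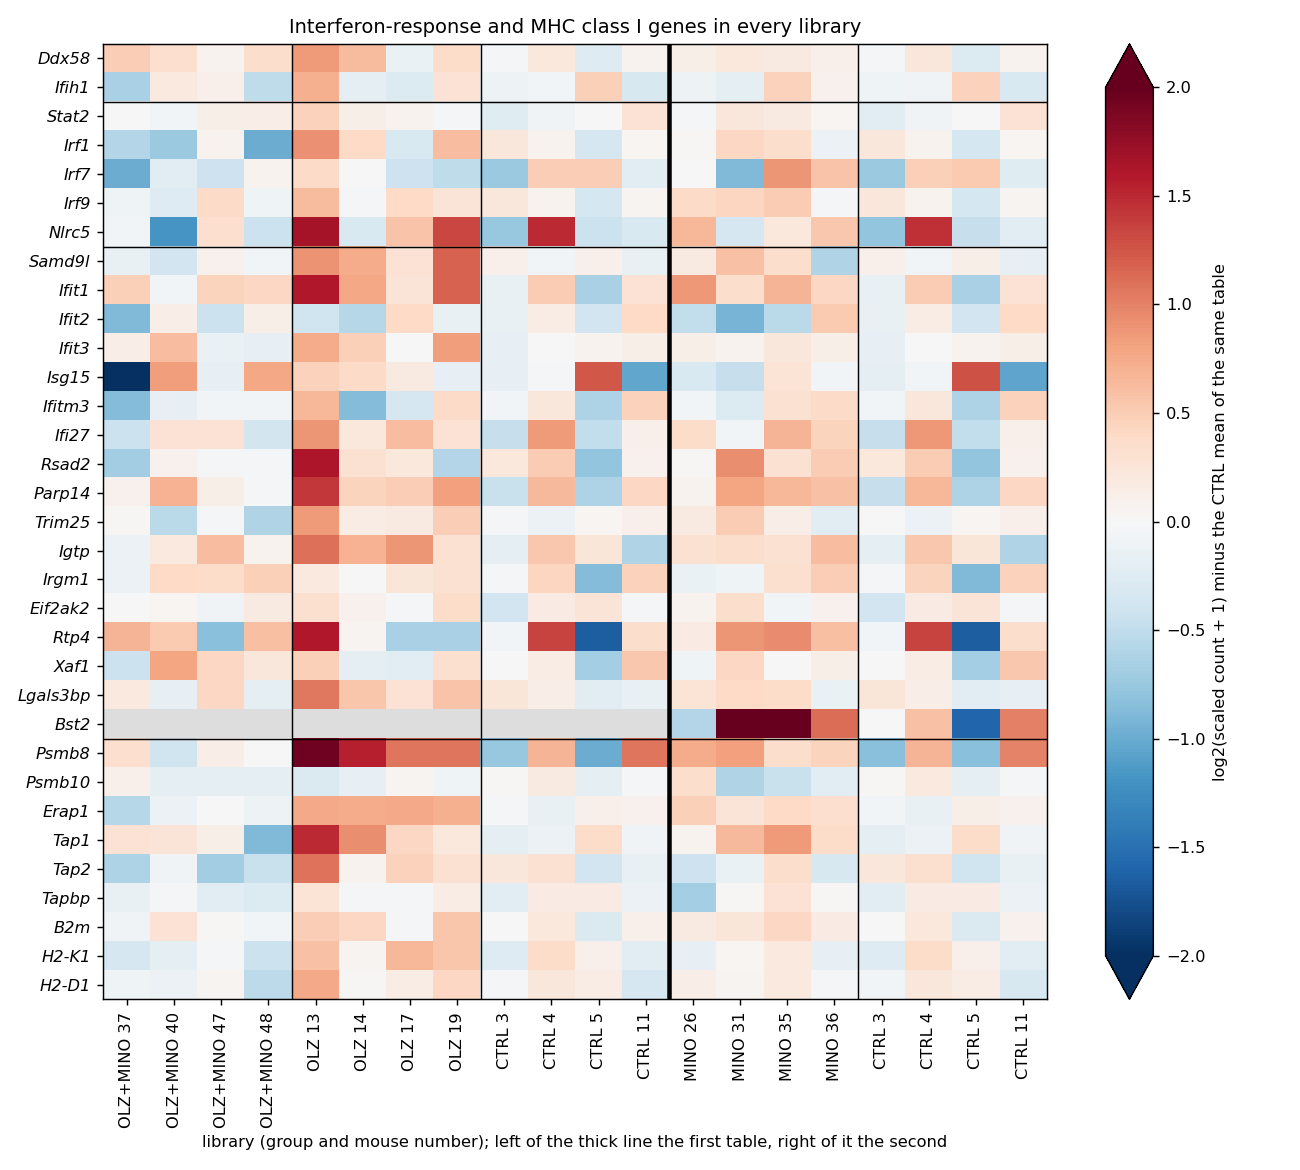
Colour gives log2(scaled count + 1) minus the CTRL mean of the same table for each gene (rows, grouped by role) in each library (columns, labelled by group and mouse number; the second table is right of the thick line, and grey means no row). OLZ mouse 13 is the reddest column, at a mean difference of 0.82, and Erap1 is the row in which all 4 OLZ libraries are alike.

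Among the genes of antigen processing, 2 of the 9 measured in the first table rose in OLZ against CTRL (Erap1 and Psmb8) and 6 fell in OLZ+MINO against OLZ (Erap1, Psmb8, Tap1, Tap2, H2-K1 and H2-D1). Of all genes, 1.82% rose in the first comparison and 6.36% fell in the second. Erap1 had 71, 98, 107 and 99 scaled counts in OLZ+MINO mice, 180, 177, 180 and 175 in OLZ mice, and 103, 95, 114 and 113 in CTRL mice. The 4 OLZ libraries lay close together and above every library of the other two groups, which overlapped each other. The log2 fold change was 0.74 ± 0.14 (SE) in OLZ against CTRL (limma adjusted p = 0.074) and −0.93 ± 0.14 in OLZ+MINO against OLZ (adjusted p = 0.026), and each exact permutation p was 0.0286, the smallest that 4 against 4 libraries can give. Without OLZ mouse 13, OLZ against CTRL still gave 0.74, with an adjusted p of 0.37. Erap1 belongs to the gene signature that the study chose on these same libraries, so its pattern here is not independent evidence.

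Erap1 (chr13:74639568-74693201, + strand, GENCODE annotation of GRCm38) overlaps Cast, the calpain inhibitor, on the other strand, and the sources used here do not say whether reads were counted by strand. Cast averaged 114.5 ± 22.8 in OLZ+MINO mice, 107 ± 20.6 in OLZ mice and 99.2 ± 36.4 in CTRL mice (SD, n = 4 each), and it was not called in OLZ against CTRL (limma adjusted p = 0.84) or in OLZ+MINO against OLZ (adjusted p = 0.90).

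Psmb8, the immunoproteasome subunit that replaces Psmb5, had 14, 8, 12 and 11 scaled counts in OLZ+MINO mice, 45, 34, 24 and 24 in OLZ mice, and 6, 18, 5 and 24 in CTRL mice. OLZ libraries lay above all OLZ+MINO libraries and met CTRL mouse 11 at 24. The log2 fold change was 1.41 ± 0.47 in OLZ against CTRL (adjusted p = 0.29) and −1.39 ± 0.47 in OLZ+MINO against OLZ (adjusted p = 0.19), the largest of the 32 genes in both comparisons, at counts low enough that a few reads matter. Psmb10, the other measured immunoproteasome subunit, averaged 118.5 ± 12.4 in OLZ+MINO mice, 117.75 ± 12.1 in OLZ mice and 128 ± 13.3 in CTRL mice, with a pair of log2 fold changes of −0.12 and 0.01 that were not called. Of the constitutive partners Psmb5, Psmb6 and Psmb7, 0 of 3 were called in either comparison.

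Tap1 and Tap2 form the peptide transporter and lie beside Psmb8 and Psmb9 in the MHC region of chromosome 17. Tap1 had 35, 34, 31 and 15 scaled counts in OLZ+MINO mice, 82, 55, 38 and 33 in OLZ mice, and 25, 26, 37 and 27 in CTRL mice. OLZ mice 13 and 14 stood apart, OLZ mouse 17 lay just above the highest CTRL library (38 against 37), and OLZ mouse 19 lay within both other groups. The log2 fold change of Tap1 was −0.81 ± 0.33 in OLZ+MINO against OLZ (adjusted p = 0.27), and the 0.76 ± 0.33 of OLZ against CTRL was not called (adjusted p = 0.40). The call in OLZ+MINO against OLZ held in 2 of 7 alternative settings. It was lost when OLZ mouse 13 or 14, or OLZ+MINO mouse 40 or 48, was left out. Tap2 had 54, 80, 51 and 61 in OLZ+MINO mice, 179, 88, 115 and 104 in OLZ mice, and 98, 104, 64 and 75 in CTRL mice. All OLZ libraries lay above all OLZ+MINO libraries and overlapped CTRL, with a log2 fold change of −0.94 ± 0.23 in OLZ+MINO against OLZ (adjusted p = 0.096) and an uncalled 0.48 ± 0.23 in OLZ against CTRL (adjusted p = 0.45).

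H2-K1 and H2-D1 are the class I heavy chains of this strain. H2-K1 had 125, 139, 155 and 117 scaled counts in OLZ+MINO mice, 239, 165, 250 and 234 in OLZ mice, and 132, 205, 170 and 136 in CTRL mice. Every OLZ library was above every OLZ+MINO library, and OLZ mouse 14 lay among the CTRL libraries. The log2 fold change was −0.71 ± 0.17 in OLZ+MINO against OLZ (adjusted p = 0.084), and 0.47 ± 0.17 in OLZ against CTRL did not pass (adjusted p = 0.32). H2-D1 had 267, 261, 294 and 195 in OLZ+MINO mice, 479, 288, 312 and 374 in OLZ mice, and 273, 330, 313 and 224 in CTRL mice. The groups overlapped, with OLZ mouse 13 highest, and the log2 fold change was −0.50 ± 0.17 in OLZ+MINO against OLZ (adjusted p = 0.19). These heavy chains share long stretches of sequence with each other and with other class I genes, so their counts are uncertain where reads could be divided between copies.

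B2m, the light chain of every class I molecule, had 251, 321, 266 and 253 scaled counts in OLZ+MINO mice, 370, 351, 258 and 387 in OLZ mice, and 261, 304, 214 and 281 in CTRL mice. OLZ mice 13, 14 and 19 lay above all other libraries and OLZ mouse 17 did not, and neither the 0.36 ± 0.14 of OLZ against CTRL (adjusted p = 0.35) nor the −0.31 ± 0.14 of OLZ+MINO against OLZ (adjusted p = 0.32) passed. Tapbp, tapasin, had 276, 301, 262 and 254 in OLZ+MINO mice, 369, 301, 298 and 338 in OLZ mice, and 262, 345, 345 and 282 in CTRL mice. It overlapped between all groups, with an uncalled log2 fold change of −0.25 ± 0.11 in OLZ+MINO against OLZ (adjusted p = 0.31).

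**Figure D3:**
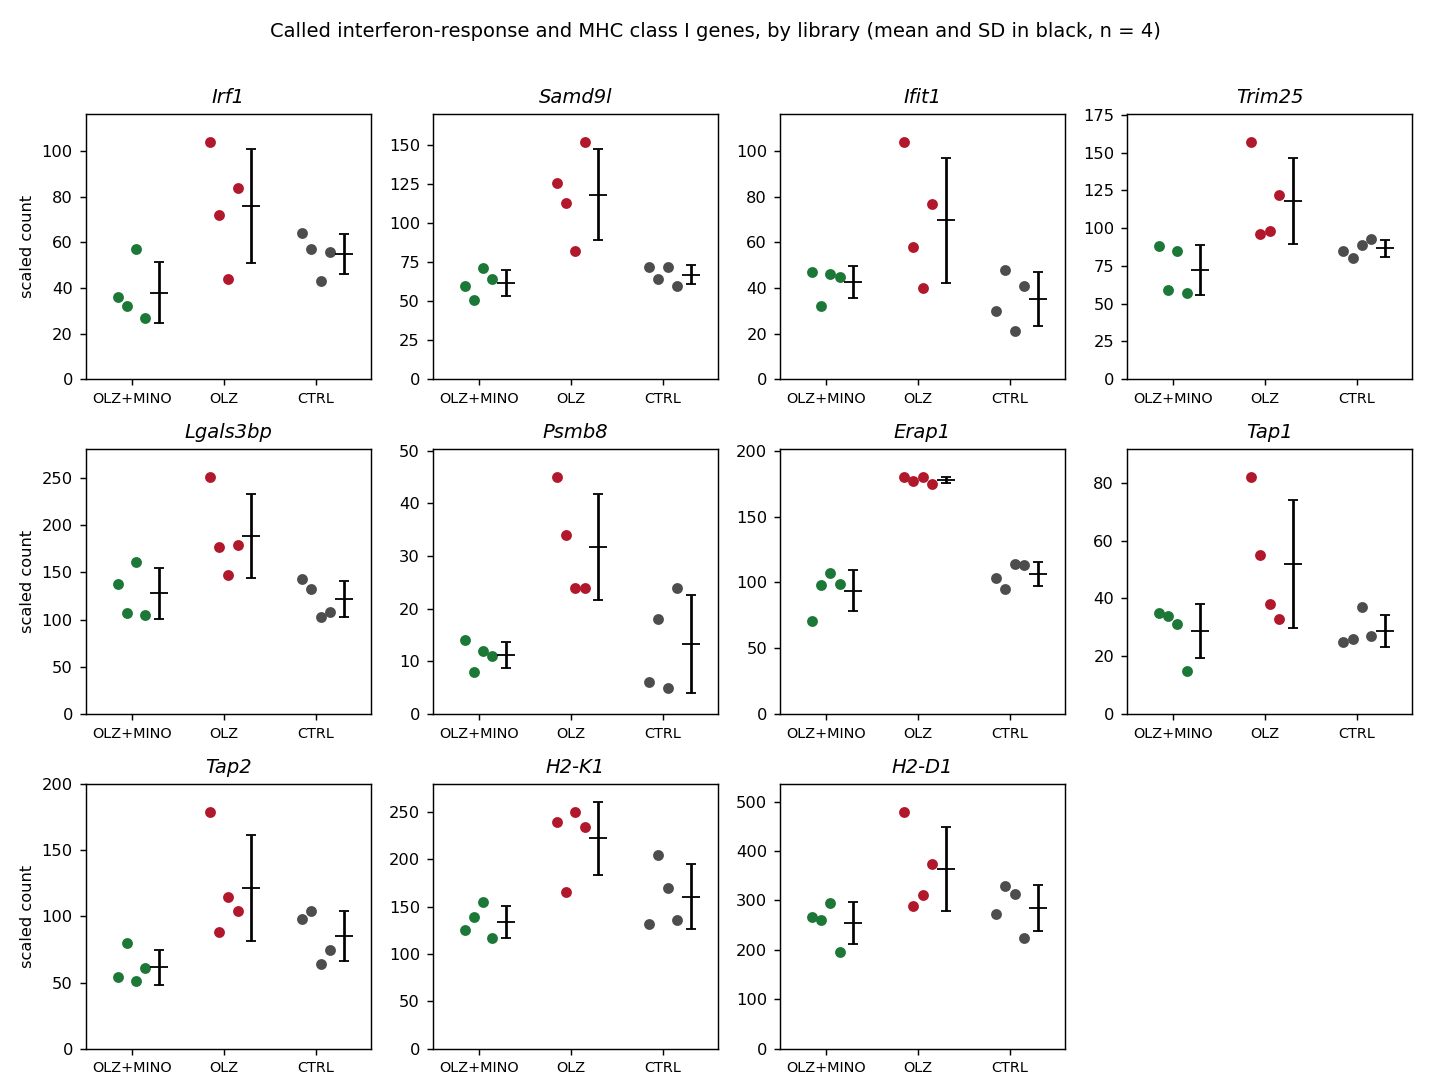
Scaled counts (y axis, from 0) of the 11 genes called in at least 1 comparison, with 1 point per library in OLZ+MINO, OLZ and CTRL mice, and the mean and SD in black (n = 4). Erap1 is the gene in which the OLZ libraries, at 175 to 180, stand clear of both other groups with the least spread.

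Among the antiviral effectors and regulators, 3 of the 16 measured rose in OLZ against CTRL (Samd9l, Lgals3bp and Ifit1), beside 1.82% of all genes. In OLZ+MINO against OLZ, 3 fell (Samd9l, Lgals3bp and Trim25), beside 6.36% of all genes. Samd9l, a restriction factor of poxviruses that also restrains cell growth, had 60, 51, 71 and 64 scaled counts in OLZ+MINO mice, 126, 113, 82 and 152 in OLZ mice, and 72, 64, 72 and 60 in CTRL mice. Every OLZ library was above every library of the other two groups. The log2 fold change was 0.78 ± 0.19 in OLZ against CTRL (adjusted p = 0.16) and −0.91 ± 0.19 in OLZ+MINO against OLZ (adjusted p = 0.060), and Samd9l, like Erap1, was chosen for the study's signature on these libraries.

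Lgals3bp, a secreted galectin-binding glycoprotein, had 138, 107, 161 and 105 scaled counts in OLZ+MINO mice, 251, 177, 147 and 179 in OLZ mice, and 143, 132, 103 and 108 in CTRL mice. OLZ libraries were above all CTRL libraries and overlapped OLZ+MINO at mouse 47. The log2 fold change was 0.62 ± 0.18 in OLZ against CTRL (adjusted p = 0.24) and −0.55 ± 0.18 in OLZ+MINO against OLZ (adjusted p = 0.19). Trim25, the ubiquitin ligase that assists the RNA sensor RIG-I, had 88, 59, 85 and 57 in OLZ+MINO mice, 157, 96, 98 and 122 in OLZ mice, and 85, 80, 89 and 93 in CTRL mice. All OLZ libraries were above both other groups, yet only OLZ+MINO against OLZ passed, at −0.70 ± 0.19 (adjusted p = 0.13), while 0.42 ± 0.19 in OLZ against CTRL did not (adjusted p = 0.44).

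The 3 Ifit genes, whose products bind viral RNA and block its translation, neighbour each other on chromosome 19, and 1 of them passed a test. Ifit1 had 47, 32, 46 and 45 scaled counts in OLZ+MINO mice, 104, 58, 40 and 77 in OLZ mice, and 30, 48, 21 and 41 in CTRL mice. The groups overlapped at OLZ mouse 17, with a log2 fold change of 0.95 ± 0.31 in OLZ against CTRL (adjusted p = 0.27) and an uncalled −0.63 ± 0.31 in OLZ+MINO against OLZ (adjusted p = 0.36). Ifit3 averaged 109 ± 29.7 in OLZ+MINO mice, 144 ± 35.2 in OLZ mice and 98.2 ± 8.4 in CTRL mice, and Ifit2 averaged 171.5 ± 53.9 in OLZ+MINO mice, 180.5 ± 56.8 in OLZ mice and 201.5 ± 47.8 in CTRL mice (SD, n = 4 each). The log2 fold changes of Ifit3 (0.51 and −0.40) and Ifit2 (−0.18 and −0.08) were not called, and reads may be shared between members of this family.

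Of the remaining effectors, Eif2ak2 (PKR, which stops translation on sensing double-stranded RNA) had the highest values. It had 227, 234, 219 and 259 scaled counts in OLZ+MINO mice, 287, 243, 223 and 296 in OLZ mice, and 176, 256, 274 and 222 in CTRL mice. The groups overlapped, and log2 fold changes of 0.19 ± 0.14 and −0.15 ± 0.14 were not called. Parp14, a mono-ADP-ribosyltransferase, and Igtp, an immunity-related GTPase, had uncalled log2 fold changes of 0.79 ± 0.31 and 0.75 ± 0.31 in OLZ against CTRL and of −0.58 ± 0.31 and −0.55 ± 0.31 in OLZ+MINO against OLZ. For Ifi27, a mitochondrial apoptosis-related protein, and Rsad2 (viperin, which makes a chain-terminating nucleotide), they were 0.50 ± 0.28 and 0.38 ± 0.43, then −0.55 ± 0.28 and −0.55 ± 0.43.

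The other effectors, among them the gene with the lowest mean, stayed near 0 or had wide errors. Isg15, the ubiquitin-like modifier whose promoter held 3 response elements, had 2, 21, 10 and 20 scaled counts in OLZ+MINO mice, 16, 15, 13 and 10 in OLZ mice, and 10, 11, 28 and 5 in CTRL mice. Its groups overlapped throughout, with log2 fold changes of 0.22 ± 0.63 and −0.36 ± 0.63. The GTPase Irgm1, the chaperone Rtp4, the apoptosis factor Xaf1 and the membrane protein Ifitm3, which blocks viral entry, had log2 fold changes of 0.19, 0.09, 0.10 and −0.04 in OLZ against CTRL and of 0.09, 0.15, 0.15 and −0.24 in OLZ+MINO against OLZ. None of them was called (smallest adjusted p = 0.81).

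Of the 5 transcription factors, 0 changed in OLZ against CTRL and 1, Irf1, fell in OLZ+MINO against OLZ, beside 6.36% of all genes falling. Irf1, which binds class I and immunoproteasome promoters, had 36, 32, 57 and 27 scaled counts in OLZ+MINO mice, 104, 72, 44 and 84 in OLZ mice, and 64, 57, 43 and 56 in CTRL mice. OLZ and OLZ+MINO met at OLZ mouse 17 and OLZ+MINO mouse 47, and the log2 fold change was −0.97 ± 0.28 (adjusted p = 0.14), while 0.41 ± 0.28 in OLZ against CTRL did not pass (adjusted p = 0.61). Nlrc5, the transactivator of class I genes, had the larger point estimates (0.82 ± 0.56 and −1.15 ± 0.56) with errors as wide, and was not called (adjusted p = 0.61 and 0.36). Stat2, the factor with the highest values, had 132, 127, 144 and 145 in OLZ+MINO mice, 182, 143, 139 and 130 in OLZ mice, and 112, 126, 133 and 162 in CTRL mice. Its groups overlapped (log2 fold changes 0.16 ± 0.14 and −0.11 ± 0.14), as did those of Irf9, its DNA-binding partner (0.31 ± 0.19 and −0.33 ± 0.19), and of Irf7, the factor that amplifies type I interferon (−0.14 ± 0.39 and −0.26 ± 0.39).

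Neither sensor of viral RNA was called. Ddx58 (RIG-I, a sensor of RNA with a 5′ triphosphate) had 115, 104, 86 and 105 scaled counts in OLZ+MINO mice, 148, 127, 75 and 106 in OLZ mice, and 81, 95, 68 and 86 in CTRL mice. OLZ mice 13 and 14 were highest and OLZ mouse 17 lay among the CTRL libraries, with log2 fold changes of 0.43 ± 0.20 and −0.12 ± 0.20 (adjusted p = 0.42 and 0.84). Ifih1 (MDA5, a sensor of long double-stranded RNA) had log2 fold changes of 0.13 ± 0.26 and −0.35 ± 0.26.

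The wider pathway was read from 8 further lists of 133 genes, 89 of them with rows in the first table. No interferon ligand had a row (0 of 11). In OLZ against CTRL, 3 of the 89 rose and 0 fell, beside 1.82% of all genes in each direction. Gbp6, a guanylate-binding protein of the interferon gamma response, averaged 107 ± 22.5 in OLZ mice and 50.2 ± 15.4 in CTRL mice, Mx1, an interferon-induced gene, averaged 19.75 ± 3.8 in OLZ mice and 8 ± 2.9 in CTRL mice, and Trim56, a ubiquitin ligase, averaged 162 ± 34.3 in OLZ mice and 109 ± 10.3 in CTRL mice (SD, n = 4 each). The 3 had log2 fold changes of 1.10, 1.25 and 0.55, and the median of the 89 was 0.17. Mx1 values were low, with a CTRL mean under the lowest mean of any gene (9.5), and Mx1 had no row in the second table. Its row may therefore depend on its OLZ values, which favours a rise, so its place among the 3 is not independent of how genes were kept.

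Between OLZ+MINO and OLZ, 19 of the 89 fell and 1 rose, beside 6.36% of all genes falling and 5.99% rising, with a median of −0.15. By size of the log2 fold change the first 5 were Iigp1, an immunity-related GTPase (−1.43 ± 0.36), Cd74, the MHC class II invariant chain (−1.37 ± 0.59), Ddx60, a helicase of the RIG-I pathway (−1.26 ± 0.35), the class I gene H2-Q2 (−1.24 ± 0.37), and Gbp6 (−1.13 ± 0.27). The interferon-induced GTPases fell in 5 of 9 genes, other interferon-induced genes in 8 of 36, and receptors and JAK-STAT genes in 3 of 11. Named after their values were seen, these receptor chains were Ifngr1 for interferon gamma, Ifnar2 for type I interferon and Il10rb, shared by interleukin 10 and interferon lambda, and the gene that rose was H2-T24, a nonclassical class I gene (0.55 ± 0.20). Other sensors of nucleic acid had 0 of 11 called.

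Markers of other cell types moved with these genes, and their part in the results was not tested. The 14 tanycyte markers with rows (of 15 listed; tanycytes line the third ventricle) summed to 1277 to 1715 scaled counts in OLZ+MINO mice, 2820 to 4833 in OLZ mice, with mouse 13 highest, and 1223 to 1723 in CTRL mice. Of these, 11 rose in OLZ against CTRL (1.82% of all genes did) and 11 fell in OLZ+MINO against OLZ (6.36% of all genes did). Fndc3c1 was at 0 in at least 1 CTRL library, as were Rax and Fndc3c1 in OLZ+MINO. The 13 microglia markers summed to 2081 to 2412 in OLZ+MINO mice, 2680 to 2866 in OLZ mice and 2301 to 2633 in CTRL mice, none at 0, with 0 called in OLZ against CTRL and 6 falling in OLZ+MINO against OLZ (Tmem119, Fcrls, C1qc, C1qb, Csf1r and Olfml3). Border macrophage markers (4 of 6 with rows) had 0 called in either comparison, with median log2 fold changes of 0.39 and −0.37. Of 7 pericyte markers, Abcc9 fell in OLZ against CTRL, beside 1.82% of all genes. It rose in OLZ+MINO against OLZ, beside 5.99% of all genes. Of 5 ependymal markers, 0 were called in either comparison. In bulk tissue, fewer cells of a type and less RNA per cell cannot be told apart.

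Endothelial markers did not move in the same way between groups. All 12 had rows, none was at 0 and 0 were called in either comparison, with sums of 1268 to 1545 in OLZ+MINO mice, 1239 to 1812 in OLZ mice and 1391 to 2498 in CTRL mice. In OLZ against CTRL, 10 of the 12 log2 fold changes were below 0 (median −0.38). In OLZ+MINO against OLZ, 6 were above 0 and 6 below (median 0.02). Within groups, OLZ mouse 13 (1812) and CTRL mouse 4 (2498) had the highest endothelial sums. Both were also highest in their groups for the genes of interest (mean log2 differences 0.82 and 0.30). The other groups did not show this. In OLZ+MINO mice the highest endothelial sum was in mouse 48 (1545). Mouse 47, at 1268, was highest there for the genes of interest (0.03). In MINO mice, mouse 36 had the highest sum (1589), while mouse 35, at 1311, was highest for the genes of interest (0.39). Meningeal fibroblast markers (10 of 10 with rows) were uneven among OLZ libraries, with sums of 1213 in mouse 13, 452 in mouse 14, 323 in mouse 17 and 1748 in mouse 19, against 318 to 610 in OLZ+MINO mice and 395 to 492 in CTRL mice, and 0 were called. Neuronal and oligodendrocyte markers had median log2 fold changes of the opposite sign to those of the genes of interest. In OLZ against CTRL, all 8 neuronal markers (median −0.21) and all 8 oligodendrocyte markers (median −0.24) had log2 fold changes below 0. Of these 16, 1 fell, the neurofilament gene Nefl, beside 1.82% of all genes. In OLZ+MINO against OLZ, all 16 were above 0 (medians 0.24 and 0.49), and 5 neuronal and 4 oligodendrocyte markers rose, beside 5.99% of all genes. Of 8 astrocyte markers, Gfap, an intermediate filament of astrocytes, rose in OLZ against CTRL (0.79 ± 0.19), beside 1.82% of all genes. Gfap fell in OLZ+MINO against OLZ (−0.70 ± 0.19), as did Slc1a3, a glutamate transporter, beside 6.36% of all genes. The part of these cell types in the results was not tested. Of blood cells, 1 of 7 T cell markers and 0 of 4 B cell and 0 of 5 neutrophil markers had rows.

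**Figure D4:**
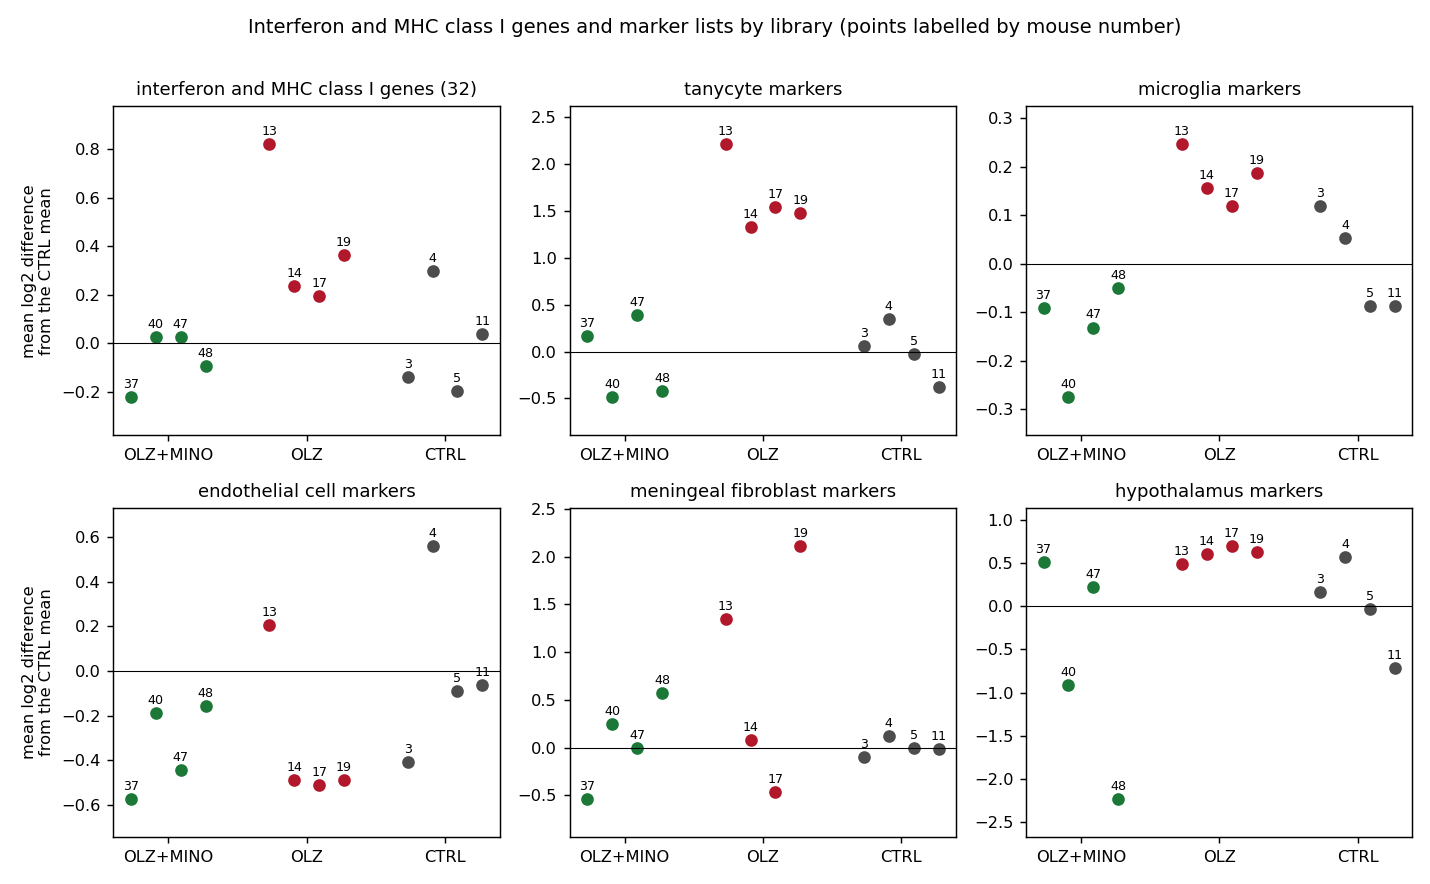
Mean log2 difference from the CTRL mean (y axis) over the 32 genes and over 5 marker lists, with 1 point per library labelled by mouse number, in OLZ+MINO, OLZ and CTRL mice. OLZ mouse 13 is highest for the interferon and MHC class I genes (0.82) and for the tanycyte markers (2.21), and OLZ+MINO mouse 48 is lowest for the hypothalamus markers (−2.23).

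With both drugs set against neither, no gene of the 32 passed the test. In OLZ+MINO against CTRL, 0 of the 32 genes were called, against 0.025% of all genes (4, all higher) by limma, and 0 of the 32 had an unadjusted p under 0.05, against 6.19% of all genes. The log2 fold changes were above 0 for 13 of the 32, against 50.2% of all genes, and below 0 for 19, with a median of −0.08. The most negative was Irf1 at −0.56 ± 0.28 (unadjusted p = 0.063, adjusted p = 0.79), then Tap2 at −0.46 ± 0.23. Erap1 had −0.19 ± 0.14 and Samd9l −0.13 ± 0.19, with adjusted p = 0.82 and 0.92. These values share their OLZ+MINO and CTRL libraries with the comparisons above.

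Minocycline without olanzapine was read from the second table, which was scaled separately and holds the same CTRL libraries. In MINO against CTRL, 0 of the 33 genes were called by limma, as were 0% of all 16005 genes, and at an unadjusted p under 0.05 there was 1 of the 33, Erap1, against 6.41% of all genes. Erap1 had 149, 127, 141 and 135 scaled counts in MINO mice, against 103, 96, 115 and 113 in CTRL mice. Every MINO library lay above every CTRL library, with a log2 fold change of 0.37 ± 0.13 (unadjusted p = 0.015, adjusted p = 0.77, exact permutation p = 0.0286), and Erap1 was the 1 gene of the 33 whose groups did not overlap in this direction, against 1.38% of all genes.

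None of the values for minocycline alone, Erap1 included, passed the test. Of the 33 log2 fold changes, 27 were above 0 (81.8%, against 50.5% of all genes), with a median of 0.15. After Erap1 the smallest unadjusted p-values were those of B2m (0.26 ± 0.12, unadjusted p = 0.051, adjusted p = 0.77) and Ifit1 (0.58 ± 0.28, unadjusted p = 0.061, adjusted p = 0.77), both by limma. Samd9l had 76, 101, 86 and 44 in MINO mice, against 72, 65, 73 and 60 in CTRL mice, which overlapped (0.12 ± 0.24). Bst2 had 3, 23, 36 and 12 in MINO mice, against 5, 8, 1 and 11 in CTRL mice, an overlap with the largest estimate of the 33 (1.29 ± 0.77, adjusted p = 0.79). Its CTRL mean of 6.25 lay under 9.5, the lowest mean of any gene in this table, and its MINO mean was 18.5. Its row may therefore depend on its MINO values, which favours an estimate above 0. Bst2 is counted among the 27 above 0. Tanycyte markers summed to 1677 to 3468 in MINO mice, against 1231 to 1735 in CTRL mice, and microglia markers to 2292 to 2636 in MINO mice, against 2311 to 2648 in CTRL mice.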

How the data were processed

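Hypothalamic RNA of 16 mice was sequenced by the authors (TruSeq libraries, HiSeq 2500), mapped with Bowtie2, counted with RSEM and analysed with limma. The build in the submitters' processing notes is mm9. For versions, scaling and filters, nothing is given in the sources used here. What the authors deposited per library reads as a scaled signal (reads times a library factor, as whole numbers; the method is not stated), so no count test was used. From the steps between low values, depth was estimated at 8.00 to 9.74 M reads per library. The deposited group means, log2 ratios, fold changes and false discovery rates were not used, nor was a sheet repeating 6 genes. Groups came from the sample labels, with 1 mouse per library.

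Tests on log2(value + 1) used limma 3.58.1 under R 4.3.3 (intensity trend, no covariates). OLZ+MINO, OLZ and CTRL shared one fit and MINO and CTRL another, since the 2 tables were scaled separately; no interaction was tested. Benjamini-Hochberg adjustment covered every gene of a table, with a threshold of 0.3, taken from the study, whose methods describe a local false discovery rate. The fit was checked on simulated data. Single genes have two-sided exact permutation tests. All 35 genes are named, with values in every library for those called, for Samd9l and Erap1 and for the gene with the highest mean of each role; B2m and Isg15 were added after their values were seen. Of pathway lists, at most 5 called genes per comparison are named, by size of change. The genes and lists were chosen with earlier results of these data known. Alternatives were another scaling, a pseudocount of 0.1, a minimum mean of 50, no trend, array weights, the compared groups alone, a threshold of 0.05 and each library left out. Promoters are RefSeq's and positions GENCODE's, both on GRCm38, used for annotation alone.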

Additional observations from a re-analysis of the deposited data

Results flagged for a closer look

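Among 129 groups of 4 libraries (each gene in each group), 9 held a library far from the other 3 by Dixon's ratio, and chance gives about 6.45 (1 in 20). These were Nlrc5 in CTRL mouse 4 (37 scaled counts, the others 7 to 10), Ifit1 in OLZ+MINO mouse 40 (32, the others 45 to 47), Ifitm3 in OLZ+MINO mouse 37 (15, the others 25 to 27), Parp14 in OLZ+MINO mouse 40 (63, the others 38 to 42), Rtp4 in OLZ mouse 13 (37, the others 7 to 12), Rtp4 in OLZ+MINO mouse 47 (6, the others 17 to 19), Psmb10 in OLZ+MINO mouse 37 (137, the others 111 to 113), Tap1 in CTRL mouse 5 (37, the others 25 to 27) and Igtp in MINO mouse 36 (34, the others 27 to 28).

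Erap1 had log2 fold changes of opposite sign with minocycline, at −0.93 ± 0.14 (SE, limma adjusted p = 0.026) in OLZ+MINO against OLZ and 0.37 ± 0.13 in MINO against CTRL, which did not pass (adjusted p = 0.77). In neither pair did the groups overlap. The difference between these effects was not tested, because the tables were scaled separately.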

How the results depend on the processing

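No paired analysis was possible because mouse numbers are not shared between groups. In OLZ against CTRL, 5 of the 32 genes and 582 of all genes were called; these became 2 and 193 without the intensity trend, 10 and 1652 with array weights, 10 and 1558 with the compared groups alone, and 0 and 2 at a threshold of 0.05. For OLZ+MINO against OLZ, 10 of the 32 and 1974 of all genes were called; all genes became 1023 without the trend, and the counts became 1 and 54 at 0.05 and 1 and 21 with OLZ+MINO mice 40 and 48 both left out, a setting chosen after seeing the data. In OLZ+MINO against CTRL, the 4 genes of the whole table became 15 without the trend and 0 with array weights, with the compared groups alone or at 0.05. With 1 library left out, the genes of interest called ranged from 0 to 10 and from 3 to 13 in the first pair of comparisons (all genes 2 to 1470 and 187 to 2834), and stayed at 0 in the others (all genes 0 to 4 in OLZ+MINO against CTRL, 0 to 3 in MINO against CTRL). The called genes kept their directions in all of these settings, and Erap1, H2-K1 and Samd9l kept their calls in OLZ+MINO against OLZ with any 1 library left out. Samd9l in MINO against CTRL, at 0.12 and not called, turned to −0.026 without MINO mouse 31 (range to 0.37). Low counts limit Psmb8, Isg15, Rtp4, Nlrc5 and Bst2 most.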
